A study of Homo sapiens with 12 samples.

Results

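Calnexin, calreticulin and 8 members of the protein disulfide isomerase family were followed on arrays of 2 hepatocellular carcinoma lines treated with DAAD2. The members are all probe sets that the platform annotation maps to CANX, CALR, P4HB, PDIA3, PDIA4, PDIA6, TXNDC5, ERP44, ERP27 or ERP29. They came to 26 of the 54613 probe sets tested, and 25 of the 26 map to a single gene. The probe set of TXNDC5 also maps to a read-through gene with BLOC1S5, and its values are given for that shared probe set. A probe set measures the RNA of a gene through a group of short probes. Where a gene has several probe sets, the brightest over all arrays stands for it, and values are log2 levels on which a difference of 1 is a 2-fold difference. DAAD2 is a derivative of (+)-dehydroabietylamine that carries an N-acetyl-L-cysteine group. Hep3B cells received 2 μM DAAD2 and SNU449 cells 20 μM, each for 72 h, and the controls of each line received 0.1% DMSO. Each of the 4 groups has 3 arrays, 12 in all, and every group stands for 1 cell line. The labels call Hep3B sensitive and SNU449 resistant to the compound, so line, sensitivity and dose cannot be told apart in these data.

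Proteins that enter the endoplasmic reticulum fold there with the help of chaperones and form disulfide bonds. Calnexin, anchored in the membrane, and calreticulin, its soluble relative and a calcium buffer, are lectins that hold glycoproteins by a trimmed sugar chain. Protein disulfide isomerases carry thioredoxin-like domains and make, break or rearrange disulfide bonds in the held protein. Hepatocytes secrete large amounts of plasma proteins and rely on this machinery.

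The identity of the lines was checked against marker lists. The mean level of 7 hepatocyte markers lay between 10.98 and 11.06 on the Hep3B control arrays and between 5.08 and 5.30 on the SNU449 control arrays. The mean of 6 mesenchymal markers lay between 6.91 and 7.11 in the former and between 9.32 and 9.38 in the latter. A gene of each list went against it, FGB at 6.01 in Hep3B and 10.06 in SNU449, and FN1 at 11.56 and 10.75. In Hep3B the leukocyte marker LYZ also reached a mean of 12.14, while the 3 endothelial markers averaged between 3.99 and 4.33 in all control arrays of both lines. Array medians lay between 3.71 and 3.85. The GAPDH control probe sets give the 3′ minus 5′ signal of each array, which grows as RNA is broken or copied short. It was 1.99 log2 units on the SNU449 DAAD2 array 2 and 0.34 to 0.97 on the remaining 5 arrays of that line. It was 1.51 on the Hep3B DMSO array 1 and 0.45 to 1.05 on the remaining 5. Of the 26 member probe sets 24 were above the array median on every array, and 2 dim ones, CANX 238138_at and ERP44 208958_at, were below it on every array.

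The starting levels of several members differed between the lines. Of the 26 probe sets 9 were higher in Hep3B than in SNU449 under DMSO at an adjusted p under 0.05, beside 14.5% of all probe sets, and 4 were lower, beside 14.8%. With dim probe sets left out, 15021 of 28441 probe sets were called, both directions together. Since 24 of the 26 members were above the array median on every array, their counts are to be read against this larger share. The counts are therefore not a result about the members. By gene, ERP44, ERP27, PDIA4, CALR and PDIA3 were higher in Hep3B. CANX and ERP29 were lower there, while P4HB, PDIA6 and the shared TXNDC5 probe set did not pass the test. The median difference over the 9 genes with a probe set of their own was 0.96, beside -0.01 over 19775 genes. Over all 26 member probe sets the median was only 0.16, with 16 of them above 0, beside -0.01 over all probe sets. The size of the median thus depended on taking the brightest probe set of each gene.

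**Figure D1:**
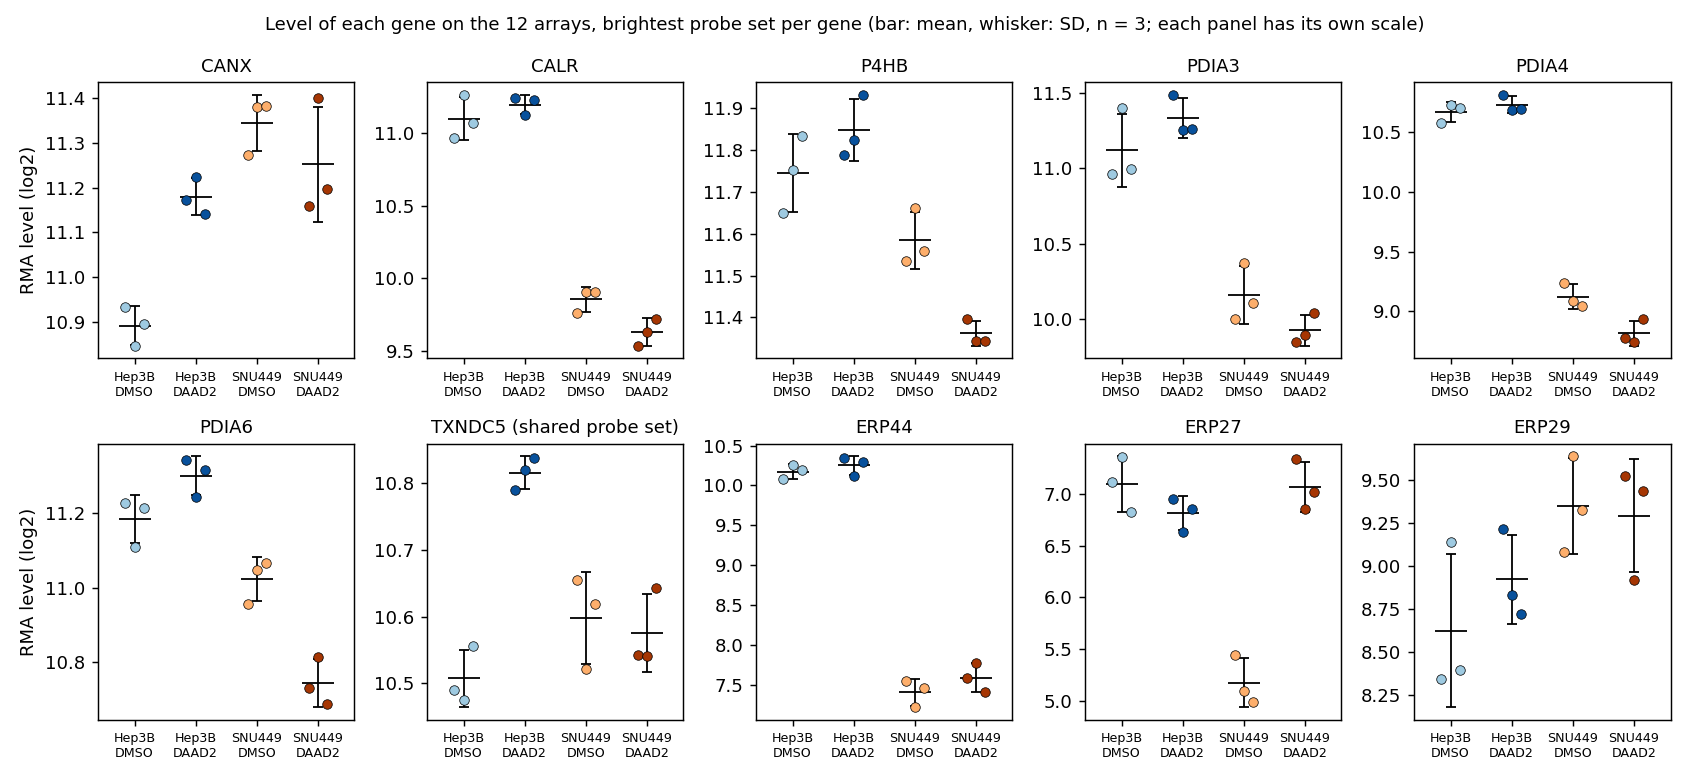
RMA log2 level of the brightest probe set of each gene on the 12 arrays, with the mean and SD of the 3 arrays of each group. ERP27 is lowest on the 3 SNU449 DMSO arrays, at 4.99 to 5.44, and ERP44 is at 10.08 to 10.34 on all Hep3B arrays and at 7.22 to 7.77 on all SNU449 arrays.

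Among the lectin chaperones the direction was opposite for calnexin and calreticulin. CANX (200068_s_at) was at 10.93, 10.85 and 10.90 on the Hep3B DMSO arrays and at 11.27, 11.38 and 11.38 on the SNU449 DMSO arrays. All 3 Hep3B arrays were below all 3 SNU449 arrays, with a difference of -0.45 (SE 0.09, adjusted p = 0.00465). A further CANX probe set, 208852_s_at, was lower in Hep3B by a wider margin, with a difference of -1.46 (SE 0.17, adjusted p = 0.000141). The 3 remaining CANX probe sets differed by -0.26 to 0.18 and none passed the test. CALR (212953_x_at) was at 10.97, 11.26 and 11.07 on the Hep3B DMSO arrays and at 9.76, 9.90 and 9.90 on the SNU449 DMSO arrays. The groups did not overlap, and the level in Hep3B was 2.37-fold that of SNU449 (log2 difference 1.25, SE 0.11, adjusted p = 2.77e-05). The other CALR probe sets had the same direction and passed the test, with differences of 1.61 on 214315_x_at and 1.29 on 200935_at, and the latter lost its call without the SNU449 DMSO array 3 (1.11). The name ending _x_at marks probe sets with probes that can match further transcripts.

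Among the catalytic isomerases PDIA4, also called ERp72, differed most. PDIA4 (211048_s_at) was at 10.58, 10.73 and 10.70 on the Hep3B DMSO arrays and at 9.24, 9.08 and 9.04 on the SNU449 DMSO arrays, a difference of 1.55 (SE 0.10, adjusted p = 3.9e-06). Its other probe set, 208658_at, showed a difference of 2.87 (SE 0.15, adjusted p = 1.21e-06), so the size of the PDIA4 difference depended on the probe set while its direction did not. PDIA3, or ERp57, is the isomerase that calnexin and calreticulin recruit to glycoproteins. PDIA3 (208612_at) was at 10.97, 11.40 and 11.00 in Hep3B and at 10.00, 10.38 and 10.11 in SNU449, all under DMSO, a difference of 0.96 (SE 0.15, adjusted p = 0.00106). Its probe set 229453_at went the other way, by -0.53 (adjusted p = 0.0229), and this call was lost without the Hep3B DMSO array 1 (-0.50) or 3 (-0.40) and without the SNU449 DMSO array 1 (-0.53), 2 (-0.54) or 3 (-0.52). For P4HB (200654_at), the classical isomerase and a subunit of collagen prolyl 4-hydroxylase, the difference was 0.16 (95% confidence interval -0.06 to 0.38). For PDIA6 (208639_x_at), an isomerase that associates with the chaperone BiP, it was also 0.16 (-0.05 to 0.37). For the shared TXNDC5 probe set it was -0.09 (-0.30 to 0.12).

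ERP44, which retrieves unfinished secretory proteins from the early Golgi, had the widest difference among the brightest probe sets of the genes. ERP44 (208959_s_at) was at 10.08, 10.26 and 10.19 on the Hep3B DMSO arrays and at 7.55, 7.22 and 7.45 on the SNU449 DMSO arrays. The level in Hep3B was 6.81-fold higher on the linear scale (log2 difference 2.77, SE 0.11, adjusted p = 2.32e-07), and on 208957_at the difference was 1.15 (adjusted p = 3.45e-05). ERP27 and ERP29 have isomerase-like domains but no catalytic activity, and ERP27 binds PDIA3. ERP27 (227450_at) was at 7.11, 7.35 and 6.82 in Hep3B DMSO and at 5.44, 5.10 and 4.99 in SNU449 DMSO, a difference of 1.92 (SE 0.17, adjusted p = 2.46e-05). ERP29 (201216_at) was at 8.34, 9.14 and 8.39 in Hep3B DMSO and at 9.08, 9.64 and 9.32 in SNU449 DMSO. These ranges overlapped. The difference of -0.72 (SE 0.22) had an adjusted p of 0.0405, and the call was lost without the Hep3B DMSO array 1 (-0.58) or 3 (-0.61), and without the SNU449 DMSO array 2 (-0.58) or 3 (-0.73).

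**Figure D2:**
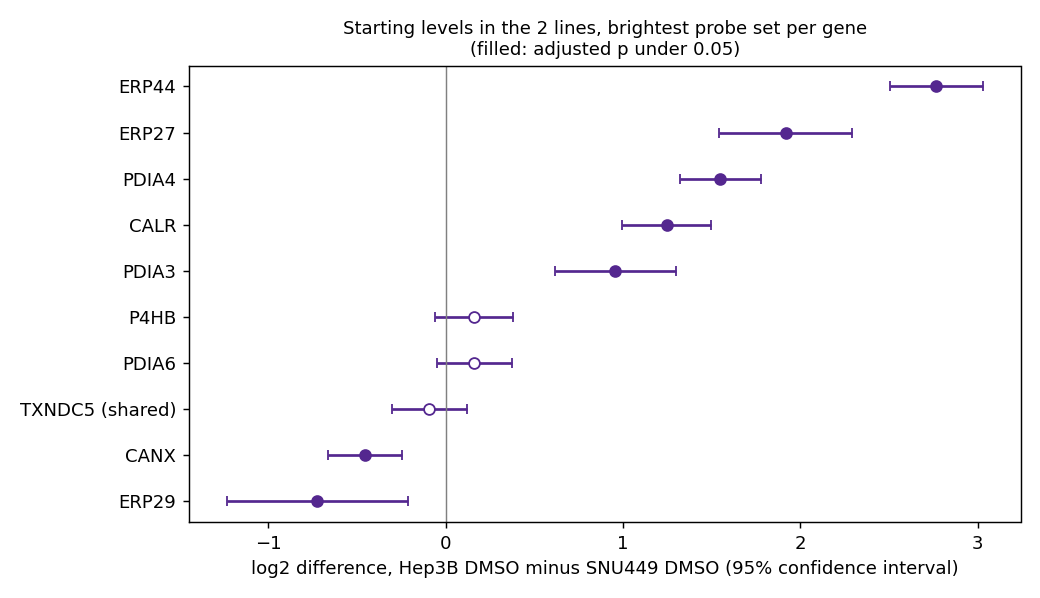
Log2 difference between Hep3B and SNU449 under DMSO for the brightest probe set of each gene, with 95% confidence intervals; filled points have an adjusted p under 0.05. ERP44 stands at 2.77 and ERP27 at 1.92, while CANX (-0.45) and ERP29 (-0.72) lie on the other side of 0.

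Several genes of this machinery are known to carry the ER stress response element in their promoters, a CCAAT box and a CCACG box 9 bases apart that binds NF-Y and ATF6 or XBP1. RefSeq promoter windows of GRCh38.p14, which run from 250 bases before to 50 after a gene start, were at hand for 8 of the 10 genes, the exceptions being PDIA3 and ERP27. On either strand the element was found in 3 of the 8 genes, CANX, CALR and PDIA6, and in 27 of 35116 windows of all genes (0.0769%). The first count is of genes and the second of windows, of which a gene can have several. CANX alone gives 3 of the 27. The element was also found in 3 of 4 genes searched from the BiP system, HSPA5, HSP90B1 and CRELD2, but not in HYOU1, whose window holds 2 copies of the second form given below. These 4 were picked from the 16 measured genes of the BiP and GRP94 list, and the rest were not searched. They include HSPA5, HYOU1 and CRELD2, the genes of that list whose responses differed between the lines, so 3 of 4 is not a share of the list. The stretches of the 3 members and of HSPA5 and CRELD2, whose responses are described below, are shown because they share these boxes, in capitals, while the bases between and around them differ. Each is read on the strand on which the CCAAT box comes first, and up to 40 bases on each side are given.
CANX: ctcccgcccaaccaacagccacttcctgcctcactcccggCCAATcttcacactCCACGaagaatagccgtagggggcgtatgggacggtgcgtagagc
CALR: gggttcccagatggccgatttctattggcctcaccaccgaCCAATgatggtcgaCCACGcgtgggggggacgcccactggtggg
PDIA6: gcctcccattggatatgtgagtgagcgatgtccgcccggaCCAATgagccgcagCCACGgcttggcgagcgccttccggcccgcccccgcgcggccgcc
HSPA5: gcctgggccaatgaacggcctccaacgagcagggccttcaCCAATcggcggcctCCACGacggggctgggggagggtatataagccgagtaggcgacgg
CRELD2: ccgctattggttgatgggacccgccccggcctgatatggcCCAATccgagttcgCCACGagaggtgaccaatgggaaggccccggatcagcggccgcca
The CANX stretch lies at chr5:179698738-179698836 on the plus strand, with the element 132 bases before a gene start, and this same copy lies in 3 of the 4 CANX windows. The CALR stretch lies at chr19:12938359-12938442 on the minus strand, opposite to the gene, and its element ends 206 bases before the start. The PDIA6 stretch lies at chr2:10812813-10812911 on the minus strand, 67 bases before the start of 1 of 2 windows. The HSPA5 stretch lies at chr9:125241351-125241449 on the minus strand and the CRELD2 stretch at chr22:49918514-49918612 on the minus strand, with the element 47 and 61 bases before the start. A second form of the element, an ATTGG box and a CCACG box 1 base apart, was found in 0 of the 8 genes and in 0.0541% of all windows. A match of letters is a description of the window and was not tested as a site.

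In SNU449 cells treated with 20 μM DAAD2, ERP27 rose and no other member passed the test. ERP27 was at 5.44, 5.10 and 4.99 on the DMSO arrays and at 7.33, 6.86 and 7.02 on the DAAD2 arrays. All 3 treated arrays were above all 3 controls. The level rose 3.71-fold (log2 fold change 1.89, SE 0.16, 95% confidence interval 1.52 to 2.26, adjusted p = 0.00231). After treatment the SNU449 mean of 7.07 ± 0.24 (SD, n = 3) lay within the range of the Hep3B DMSO arrays, 6.82 to 7.35, and no test of that likeness was made. With the variance of each probe set taken alone, without moderation, the adjusted p was 0.15 and the call was lost, whereas with any single array left out the rise stayed between 1.76 and 2.02 and kept its call. In SNU449 1 of 7 hepatocyte markers, FGB (1.56, list median 0.25), and 1 of 6 mesenchymal markers, COL1A1 (1.21, list median -0.04), were also called higher after DAAD2, and their part in the ERP27 result was not tested. That 1 of 26 members was called higher compares with 1.04% of all probe sets, and 0 of 26 were called lower, beside 0.417%.

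Most other members in SNU449 had differences below 0 that did not pass the test. At an unadjusted p under 0.05, 7 of 26 probe sets were lower, beside 5.80% of all probe sets, and by the sign of the difference 21 of 26 were lower. The median over the 9 genes was -0.22, beside 0.00 over all genes. The 7 were 3 probe sets of PDIA6, both of PDIA4, and a further probe set each of CALR and P4HB. PDIA4 (211048_s_at) was at 9.24, 9.08 and 9.04 on the DMSO arrays and at 8.77, 8.74 and 8.94 on the DAAD2 arrays, a fold change of -0.31 on the log2 scale (SE 0.11, adjusted p = 0.311). The groups did not overlap. PDIA6 (208639_x_at) was at 10.96, 11.05 and 11.07 on the DMSO arrays and at 10.73, 10.81 and 10.69 on the DAAD2 arrays, a fold change of -0.28 on the log2 scale (SE 0.10, adjusted p = 0.31), again without overlap. Its probe set 216640_s_at had the lowest adjusted p among the members with lower levels, 0.183, at -0.39 (SE 0.12). CALR (212953_x_at) was at 9.76, 9.90 and 9.90 on the DMSO arrays and at 9.53, 9.63 and 9.72 on the DAAD2 arrays, a log2 fold change of -0.23 (SE 0.11, adjusted p = 0.488), and 214315_x_at stood at -0.54 (SE 0.18, adjusted p = 0.259). Calnexin, TXNDC5, ERP29 and ERP44 had intervals that span 0. CANX (200068_s_at) stood at -0.09 (95% confidence interval -0.35 to 0.16), the shared TXNDC5 probe set at -0.02 (-0.26 to 0.21), ERP29 at -0.06 (-0.50 to 0.39) and ERP44 (208959_s_at) at 0.18 (-0.13 to 0.50). The ERP44 probe set 208957_at went the other way, at -0.26 (-0.57 to 0.05). PDIA3 (208612_at) stood at -0.24 (-0.53 to 0.06) and its probe set 229453_at at 0.16 (-0.39 to 0.71). The number lower at an unadjusted p under 0.05 was 4, 3 and 3 without the DMSO array 1, 2 or 3. The shares of all probe sets were then 5.39%, 4.46% and 3.84%. Without the DAAD2 array 1 the number was 2, beside 4.65%.

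**Figure D3:**
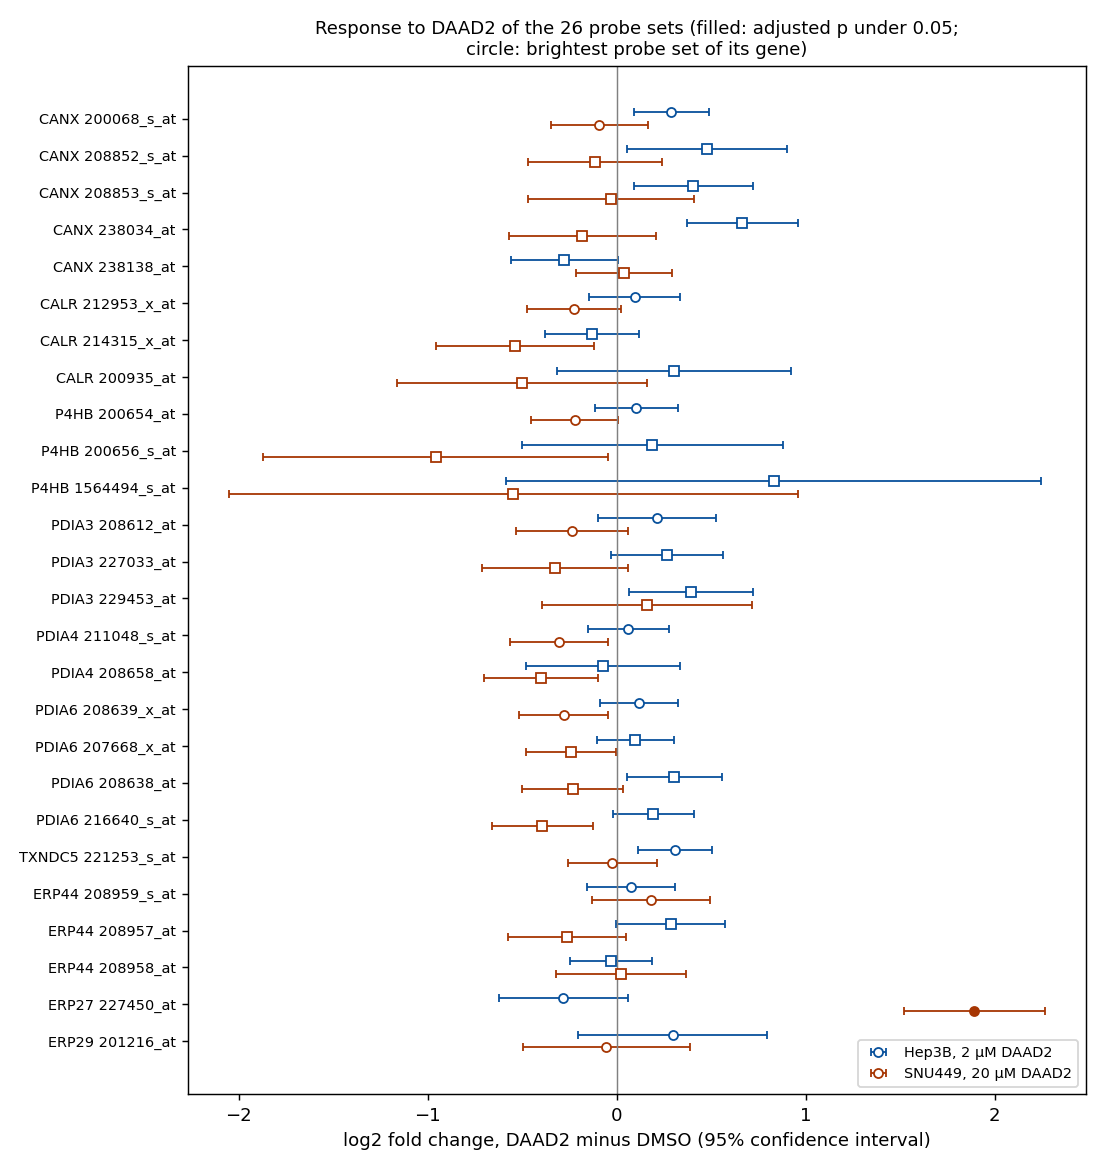
Log2 fold change of the 26 probe sets after DAAD2 in Hep3B (blue) and SNU449 (orange), with 95% confidence intervals from limma; filled points have an adjusted p under 0.05 and circles are the brightest probe set of a gene. ERP27 in SNU449 is the filled point at 1.89, and most other SNU449 points lie left of their Hep3B partners.

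In Hep3B cells treated with 2 μM DAAD2, 0 of the 26 member probe sets were called higher and 0 lower, beside 0% of all probe sets in either direction. At an unadjusted p under 0.05, 7 of 26 were higher, beside 9.53% of all probe sets, and 0 were lower. They were 4 probe sets of CANX and a probe set each of PDIA3, PDIA6 and TXNDC5, the last being the shared one. CANX (200068_s_at) was at 10.93, 10.85 and 10.90 on the DMSO arrays and at 11.17, 11.22 and 11.14 on the DAAD2 arrays. The treated arrays all lay above the controls, with a log2 fold change of 0.29 (SE 0.09, adjusted p = 0.184), and on 238034_at the log2 fold change was 0.67 (SE 0.13, adjusted p = 0.091). Calnexin was the loading control of the protein blots in the study, which were not analysed here. The shared TXNDC5 probe set was at 10.49, 10.48 and 10.56 on the DMSO arrays and at 10.79, 10.82 and 10.84 on the DAAD2 arrays, with a log2 fold change of 0.31 (SE 0.09, adjusted p = 0.159). CALR (212953_x_at) stood at 0.09 (95% confidence interval -0.15 to 0.34), PDIA4 (211048_s_at) at 0.06 (-0.15 to 0.28), PDIA3 (208612_at) at 0.21 (-0.10 to 0.53) and PDIA6 (208639_x_at) at 0.12 (-0.09 to 0.32). ERP44 (208959_s_at) stood at 0.08 (-0.16 to 0.31), P4HB (200654_at) at 0.10 (-0.12 to 0.32) and ERP29 at 0.30 (-0.20 to 0.80). ERP27 stood at -0.28 (-0.62 to 0.06). The CALR probe set 214315_x_at, at -0.13 (-0.38 to 0.12), and the PDIA4 probe set 208658_at, at -0.07 (-0.48 to 0.33), had the opposite sign to the brightest ones.

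The values of the Hep3B members depended on the scaling of the arrays. By sign 21 of 26 probe sets were higher, and the median over the 9 genes was 0.10, beside -0.01 over all genes. Quantile normalization of the deposited values brought this median to 0.02, and cyclic loess brought it to -0.02. In place of 7 probe sets higher at an unadjusted p under 0.05, quantile normalization left 3, beside 5.97% of all probe sets. Cyclic loess left 2 of 26, beside 7.28%, which is near the share of all probe sets. Bright probe sets as a whole were also shifted in Hep3B. At a mean level of 6 to 8 the median was 0.15 for 7551 probe sets and 0.30 for the 7 members among them. At 8 to 10 it was 0.15 for 3765 probe sets and 0.13 for 8 members, and over 10 it was 0.09 for 1208 probe sets and 0.17 for 8 members. In SNU449 the same brightness classes had medians of -0.01, -0.01 and -0.04, against -0.26, -0.35 and -0.23 for the members. The 3 remaining members were dimmer.

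The responses of the lines were set against each other in an interaction contrast, SNU449 minus Hep3B. ERP27 differed, by 2.17 (SE 0.24, 95% confidence interval 1.66 to 2.68, adjusted p = 0.000949), with all SNU449 DAAD2 arrays above their controls and a Hep3B difference of -0.28. This was 1 of 26 members called higher, beside 0.797% of all probe sets. At the same threshold 0 of 26 were lower, beside 1.21%. At an unadjusted p under 0.05, 14 of 26 were lower, beside 8.05% of all probe sets. Under quantile normalization 5 were lower, beside 6.54%, and under cyclic loess 5, beside 6.6%. Nearest to the threshold were PDIA6 216640_s_at, at -0.59 (SE 0.14, adjusted p = 0.0536), and CANX 238034_at, at -0.85 (SE 0.23, adjusted p = 0.0793). In Hep3B these were at 0.19 and 0.67, and in SNU449 at -0.39 and -0.18. Without the SNU449 DAAD2 array 2, 2 members were called lower, and without the SNU449 DMSO array 1, 1 member. These fits called 2321 and 1061 of all 54613 probe sets, both directions together. Without the SNU449 DMSO array 2 the 14 fell to 9, beside 7.01% of all probe sets.

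P4HB showed how far a value can rest on the probe set. Its probe set 200654_at was at 11.53, 11.66 and 11.56 on the SNU449 DMSO arrays and at 11.40, 11.34 and 11.34 on the DAAD2 arrays, a log2 fold change of -0.22 (95% confidence interval -0.45 to 0.01, adjusted p = 0.452). Its probe set 200656_s_at was at 9.25, 9.62 and 9.58 and then at 8.98, 7.41 and 9.20, a log2 fold change of -0.96 (SE 0.40, adjusted p = 0.393). The lowest of these values, 7.41, belongs to the array with the highest GAPDH 3′ minus 5′ signal, and without that array the difference was -0.39. On 1564494_s_at the same array was at 4.34, and the difference went from -0.55 with it to 0.21 without it. In Hep3B the DMSO array 1, the highest of that line in GAPDH 3′ minus 5′ signal, was the lowest of its line on both of these probe sets, at 9.02 and 4.58. On 200654_at the log2 fold change was -0.22 with and -0.21 without the SNU449 array. The 3′ minus 5′ signal of the ACTB control probe sets was also highest of its line on the SNU449 DAAD2 array 2, at 3.04. In Hep3B it was 2.73 on the DMSO array 1, below 2.90 on the DMSO array 3 and 3.27 on the DAAD2 array 3. On those 2 arrays 1564494_s_at stood at 6.94 and 6.99. The part of RNA quality in these values was not tested beyond these comparisons.

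**Figure D4:**
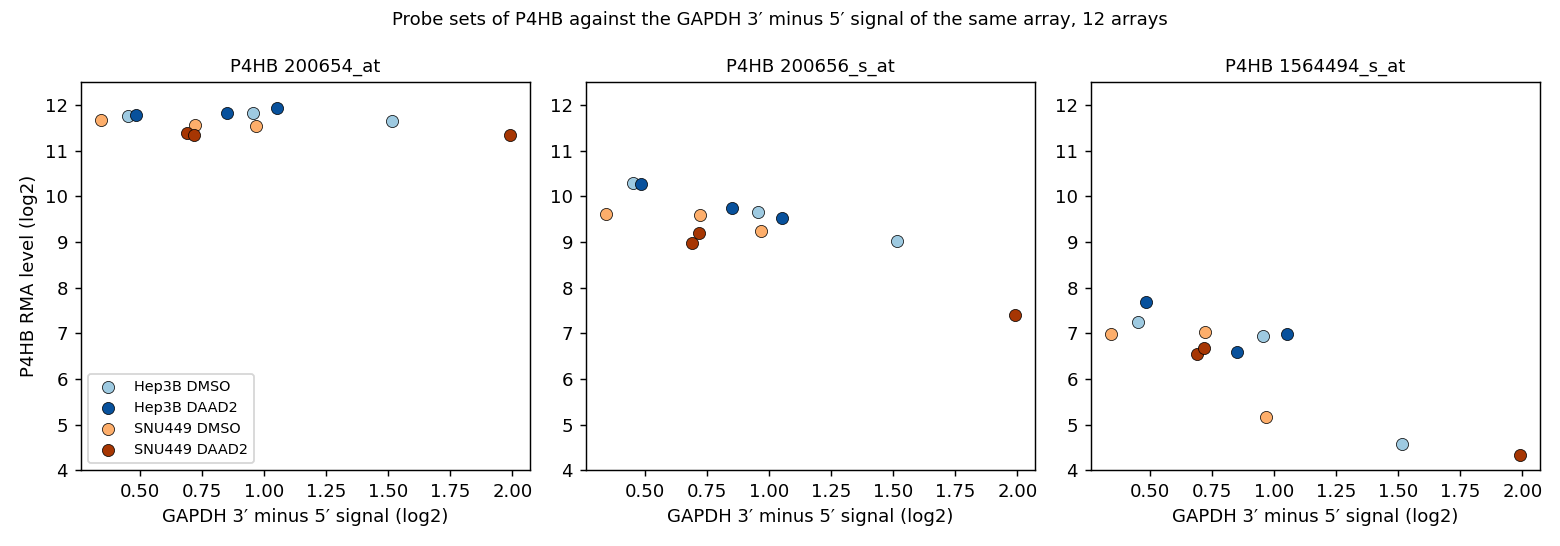
RMA log2 level of the 3 P4HB probe sets against the GAPDH 3′ minus 5′ signal (log2 units) of the same array, 12 arrays coloured by group. Both dimmer probe sets are low where the GAPDH value is high, down to 7.41 and 4.34 at 1.99, while 200654_at stays between 11.34 and 11.93.

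The other genes of the pathway were followed in 8 lists. In Hep3B 0 genes of any list were called after DAAD2. In SNU449 TAP1, a subunit of the peptide transporter that works beside calreticulin and PDIA3 in loading of class I molecules, rose by 0.70 (adjusted p = 0.0436), and ERN1, the sensor IRE1α, rose by 1.08 (adjusted p = 0.04), while 0 genes were called lower. TAP1 was 1 of 12 measured partners of the member proteins, and ERN1 was 1 of 7 measured regulators of the unfolded protein response. No gene of the other lists was called higher, beside 1.82% of all genes. The calls are therefore not a result about the lists. On 1 of 3 SNU449 DMSO arrays ERN1 was below the array median. In Hep3B ERN1 stood at 0.45 (SE 0.09, unadjusted p = 0.00102, adjusted p = 0.0979). TAP1 kept its call under 9 of 17 alternatives (adjusted p between 0.0203 and 0.292) and ERN1 under 8 of 17 (0.00287 to 0.364). The median of the 16 measured genes of the BiP and GRP94 system was 0.09 in Hep3B and -0.26 in SNU449, close to the medians of 0.10 and -0.22 of the members. Of these 16 genes, 3 differed between the lines in their response at an adjusted p under 0.05, all lower in SNU449, beside 1.82% of all genes. HSPA5, the chaperone BiP, went from 12.10 to 12.72 in Hep3B and from 11.15 to 10.85 in SNU449, an interaction of -0.93 (SE 0.14, adjusted p = 0.00598). HYOU1, a nucleotide exchange factor of BiP, had an interaction of -0.72 (SE 0.15, adjusted p = 0.0298), and CRELD2 one of -0.70 (SE 0.16, adjusted p = 0.0451). Among 12 partners of the member proteins TAP2 had an interaction of -0.76 (SE 0.18, adjusted p = 0.0488). HSPA5 kept its call under 22 of 22 alternatives, HYOU1 under 11, CRELD2 under 7 and TAP2 under 5, with adjusted p up to 0.0442, 0.0881, 0.118 and 0.131. The lists of other isomerases (12 measured), disulfide oxidation (11), glycoprotein folding (14), ER-associated degradation (12), calcium-binding proteins (8) and regulators of the unfolded protein response (7) had 0 genes called in the interaction. Their medians lay between 0.01 and 0.45 in Hep3B and between 0.04 and 0.12 in SNU449.

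**Figure D5:**
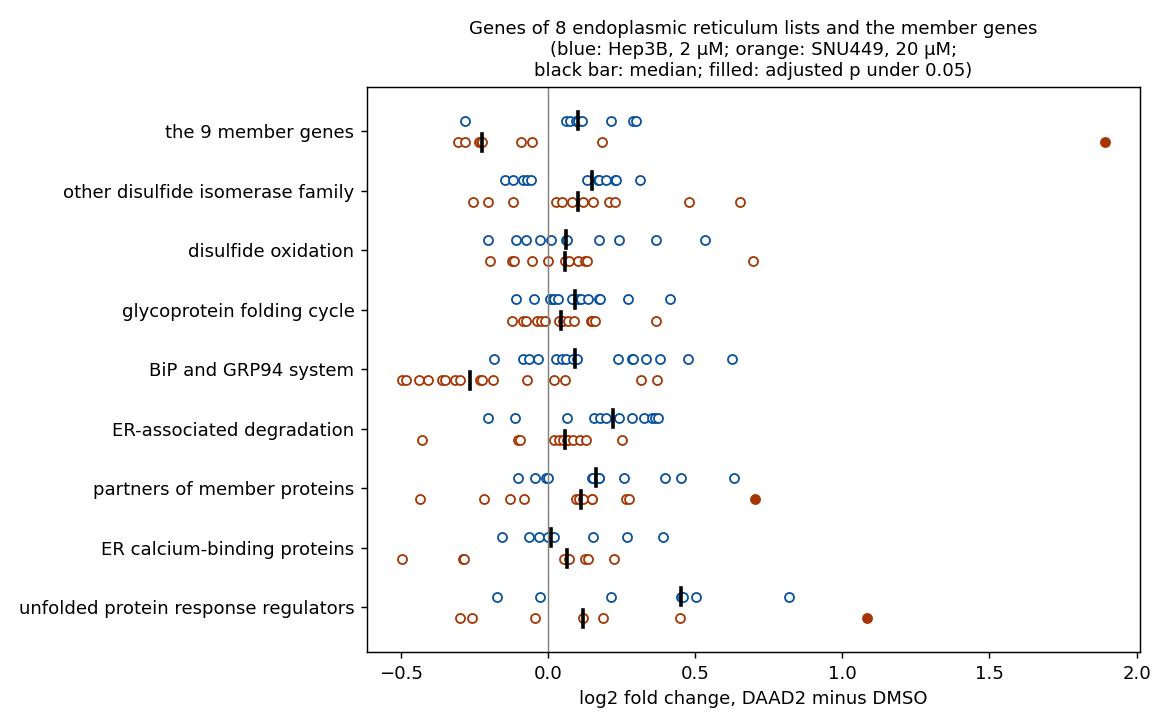
Log2 fold change after DAAD2 of the genes of 8 lists and of the 9 member genes with a probe set of their own, in Hep3B (blue) and SNU449 (orange), with list medians as black bars and filled points for an adjusted p under 0.05. In SNU449 the medians of the members (-0.22) and of the BiP and GRP94 system (-0.26) lie left of 0, and the filled points are ERP27, TAP1 and ERN1.

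Under DMSO 21.4% of all genes were called higher in Hep3B and 19.4% lower, and the counts of the lists are to be read against these shares. Of the BiP and GRP94 system 11 of 16 genes were higher in Hep3B DMSO and 0 lower, and of the glycoprotein folding cycle 9 of 14 were higher and 1 lower. One of these was CLGN, calmegin, a relative of calnexin best known from testis (adjusted p = 1.96e-08). CLGN was at 8.84 in Hep3B and below the array median on 3 of 3 SNU449 arrays, where its level is only bounded, so no fold is given. Of the disulfide oxidation list 2 of 11 were higher in Hep3B and 6 lower. In it 2 related peroxidases of the endoplasmic reticulum had opposite directions. GPX7 was at 7.81 in Hep3B and below the array median on 3 of 3 SNU449 arrays (adjusted p = 2.43e-07), and GPX8 was at 9.11 in SNU449 and below it on 3 of 3 Hep3B arrays (adjusted p = 5.74e-09). ERO1B, an oxidase of disulfide isomerases, stood at -3.07 (adjusted p = 3.7e-07). Among the partners MTTP, the subunit that pairs with P4HB in the microsomal triglyceride transfer protein, was at 6.56 in Hep3B and below the array median on 3 of 3 SNU449 arrays (adjusted p = 1.74e-07). The catalytic subunits of prolyl 4-hydroxylase that pair with P4HB were lower there, P4HA1 at -1.02 (adjusted p = 1e-04) and P4HA2 at -0.71 (adjusted p = 0.00133), while P4HB itself differed by 0.16. Of other isomerases 5 of 12 were higher and 2 lower, with TMX3 at -3.33 (adjusted p = 2.07e-07) and AGR2, which was below the array median on 2 of 3 SNU449 arrays, higher in Hep3B (adjusted p = 5.24e-06).

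The 3 members with the widest range over the 12 arrays, ERP44, ERP27 and PDIA4, were compared with 19774 other genes by the root mean square difference of their profiles, each taken relative to its own mean. Nearest to ERP27 were TRAPPC6A, UBE2L6 and BHLHE40, at 0.29, 0.30 and 0.31 log2 units. TRAPPC6A went from 6.62 to 7.90 in SNU449 and from 8.01 to 7.86 in Hep3B. Nearest to ERP44 were CPPED1, SLC18B1 and IDH1, at 0.16, 0.16 and 0.17, and nearest to PDIA4 were EIF4EBP2, SF3B2 and PSMD11, at 0.080, 0.084 and 0.11. UBE2L6 went from 7.42 to 8.61 and BHLHE40 from 7.98 to 9.34 in SNU449, so that these profiles, like that of ERP27, were low in SNU449 DMSO and nearer to the Hep3B levels in the treated SNU449 arrays. For ERP44 and PDIA4 the widest step in the profile was the one between the lines. The 12 arrays hold only 4 groups, and likeness is a description without a test.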

How the data were processed

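RNA of the 4 groups was hybridised to U133 Plus 2.0 arrays of Affymetrix. The deposited values are log2 levels, which the authors made with RMA, and 0 columns were left unused. For RMA no version is given in the sources used here. RMA corrects background, normalizes between arrays and sums up probes. It also compresses the differences of dim probe sets. The number of arrays (3 per group) limits the precision. Groups came from the labels. The study speaks of independent experiments for its data in general and of triplicates for the arrays, without saying whether these were separate cultures, so p-values measure the spread between these arrays, which may be technical.

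The 62 control probe sets were left out. To the rest, limma 3.58.1 (R 4.3.3) was applied two-sided in 4 comparisons, namely DAAD2 against DMSO in each line, the difference of both responses over 12 arrays, and the lines under DMSO. Benjamini-Hochberg adjustment ran over all 54613 probe sets, and those under 0.05 were called. With 3 arrays a group, no exact permutation p can lie below 0.1. The method was run on simulated data with planted shifts and independent noise for each probe set. Such data hold no array-wide shifts and no differences in RNA quality, so the run cannot show how these affect the results. Symbols came from the platform annotation, which carries 1 symbol for 41091 probe sets, several for 1801 and none for 11721, and PDIA5 and SYVN1 are measured only by shared probe sets. Members, gene lists and markers were chosen with earlier results of these data known. All members are named. Beyond them, up to 4 called genes with the largest change per list and comparison, and the 3 genes most like each of 3 members, were eligible for naming. FGB, FN1 and COL1A1 were named after their values were seen. Alternatives were a single fit of all arrays, dim probe sets left out, the replicate number as a block, centring, quantile normalization, cyclic loess, other variance models, the 1.5-fold rule, 1 value per gene and each array left out. Figures were drawn with matplotlib 3.10.9 in Python 3.11.15.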

Additional observations from a re-analysis of the deposited data

Results flagged for a closer look

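These results differ between the lines by the interaction test, 3 of them in the BiP and GRP94 system. The response of ERP27 was higher in SNU449 than in Hep3B by 2.17 log2 units (adjusted p = 0.000949). The response of HSPA5 was lower in SNU449 by the same contrast, at -0.93 (adjusted p = 0.00598), as were those of HYOU1 at -0.72 (adjusted p = 0.0298), CRELD2 at -0.70 (adjusted p = 0.0451) and TAP2 at -0.76 (adjusted p = 0.0488). Dose and line cannot be told apart in each of these.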

How the results depend on the processing

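Among the member counts of called probe sets, those of the higher responses in SNU449 and in the interaction (1 each) and of the lower responses in Hep3B (0) kept their value under all alternatives run, except for SNU449 without variance moderation, where 0 were called and ERP27, at 1.89, had an adjusted p of 0.15. A 1.5-fold change, the fold of the study's methods, was also used, with an unadjusted p under 0.05 added here. It gave 1 higher probe set in Hep3B, 1 lower in SNU449, 4 lower in the interaction and 2 lower in Hep3B against SNU449. In the same order this rule called 885, 1798, 3703 and 11904 of all 54613 probe sets, both directions together. In the interaction 2 were lower with a trended and robust variance and 2 with GAPDH 3′ minus 5′ as a covariate. The covariate was chosen after seeing the data. These settings called 1325 and 1846 of all 54613 probe sets, both directions together. With 1 probe set per gene the lines differed in 5 higher and 2 lower of 9 genes, beside 9 and 4 of 26 probe sets. This setting called 8536 of all 19775 genes, both directions together. Without moderation 2 of the 26 probe sets were lower between the lines, and 11689 of all 54613 probe sets were called in either direction. Leaving out each array in turn gave 0 to 1 called lower in SNU449, 0 to 2 in the interaction and 2 to 4 between the lines. These fits called 105 to 1168, 435 to 2321 and 13762 to 14949 of all 54613 probe sets, both directions together. At an unadjusted p under 0.05, the counts of 26 probe sets were 7 (Hep3B higher), 7 (SNU449 lower) and 14 (interaction lower). The shares of all probe sets were 9.53%, 5.80% and 8.05%. The counts became 3, 5 and 5 under quantile normalization, beside 5.97%, 6.05% and 6.54%. Under cyclic loess they became 2, 5 and 5, beside 7.28%, 5.25% and 6.6%. With each array left out they ranged from 2 to 8 in SNU449 and from 9 to 18 in the interaction. The shares then ranged from 3.84% to 8.28% and from 6.46% to 10.3%. With 1 probe set per gene the base was 9 genes in place of 26 probe sets. The counts were then 1, 2 and 5 of 9, beside 13.7%, 7.14% and 10.8% of all genes. The Hep3B median of 0.10 became 0.16 with centred arrays, 0.0181 with quantile normalization, -0.0217 with cyclic loess and 0.18 with the mean of the probe sets of a gene, and ranged from 0.0549 (without the Hep3B DMSO array 1) to 0.141 with each array left out. The SNU449 median of -0.22 became -0.13 with that mean and -0.25 to -0.13 with each array left out, the last without the SNU449 DMSO array 2.

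Uncalled values that changed sign in Hep3B were CALR (-0.0209 with quantile normalization, -0.0465 with cyclic loess), PDIA4 (-0.0408 and -0.0864), ERP44 (-0.0501 and -0.0799), P4HB (-0.0217 with cyclic loess) and PDIA6 (-0.0155 with cyclic loess). In SNU449 the TXNDC5 probe set ranged from -0.0616 to 0.0049 with an array left out, and ERP29 from -0.19 to 0.13, with 0.18 under the GAPDH covariate and 0.0284 for its interaction. The cause was not tested. The labels do not say that the replicate numbers pair the arrays. Deviations from the group means correlated between -0.27 and 0.09 for same-numbered arrays and between -0.17 and 0.34 for differently numbered ones. With 3 arrays a group these deviations sum to 0, so the correlations cannot decide whether arrays were paired. With the replicate number as a block, ERP27 in SNU449 stayed at 1.89 (adjusted p = 0.00852) and counts of called members did not change, while TAP1 (adjusted p = 0.12), ERN1 (0.0607), HYOU1 (0.0845), CRELD2 (0.107) and TAP2 (0.131) lost their calls.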
